A study of Rattus norvegicus with 12 samples.

Results

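The cytosolic ribosomal proteins are the protein components of the ribosomes that translate the messenger RNAs of nuclear genes. Their transcripts were followed in rat N27 cells that were wild type or labelled as a knockout of Vdac1, the gene of an anion channel in the outer mitochondrial membrane. Genes were chosen by the name that the array annotation gives: Rpl and a number for the large subunit, Rps and a number for the small subunit, each with an optional a, x or y, and also Rplp0 to Rplp2 and Rpsa. This gave 77 genes, 46 of the large and 31 of the small subunit, out of 36174 gene names on the array and 14746 features tested. Each gene was read by its brightest probe, and all 77 of these probes were well above background on all 12 arrays. Genes described as a ribosomal protein but named otherwise, most of them copies, were kept apart.

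N27 is an immortalised cell line from rat midbrain, which the labels call a dopaminergic neuron line. There were 7 cultures labelled as a CRISPR knockout of Vdac1 (KO 1 to KO 7, called the knockout below) and 5 wild-type cultures (WT 3 and WT 5 to WT 8), with no other treatment named, all grown to 80% confluence. Total RNA of each culture was hybridised to a 1-colour Agilent array. The number of clones behind the knockout cultures, the place of the edit and the independence of the cultures within a group are not given in the sources used here. A p-value therefore measures the spread between these arrays of a group, which may be technical.

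A ribosome joins a small subunit, which holds the messenger RNA and reads its codons, to a large subunit, which forms the peptide bonds and carries the exit tunnel of the new protein. The proteins are needed in equal number, one of each per ribosome apart from the acidic stalk proteins, and their genes are therefore usually described as a coordinated set. Their messenger RNAs begin with a C and a run of pyrimidines, the terminal oligopyrimidine motif, through which the kinase mTORC1 and the RNA-binding protein LARP1 govern their translation. Mammalian genomes also hold many processed copies of these genes, which complicates their measurement by hybridisation.

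The 75th percentile of spot intensity ranged from 120.1 to 691.8 between arrays, and between 42.3% and 53.8% of spots were well above background, with 0 saturated. Each value below is a log2 intensity minus its array's 75th percentile, so that 0 is that percentile and each unit is a doubling. The arrays lay on 3 slides, each of which held both genotypes. Slide 3, with KO 4, KO 5, WT 6 and WT 7, was scanned on a different day from the others. Its arrays had the lowest 75th percentiles, 120.1 to 189.7. Of the dopaminergic markers, Th and Aldh1a1 were well above background on all 12 arrays, whereas Ddc, Slc6a3, Lmx1a, En1 and Foxa2 were so on none. Nes and Vim, of neural precursors, were above background on all arrays and 5 of 11 neuronal and precursor genes on none. Of 16 genes of other cell types, 3 (Cx3cr1, Col1a1 and Pdgfrb) were so on all arrays and 7 on none, and their part in the results was not tested.

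Vdac1 itself was checked first. Its signal lay between 3.07 and 3.61 in the wild type and between 1.20 and 2.68 in the knockout, with every knockout array below every wild-type array. Signal above the array's 75th percentile thus remained on all 7 knockout arrays, and the arrays do not show whether the protein was lost. The difference was -1.23 (SE 0.28), and limma's adjusted p over all features was 0.0560. The call changed with blocking, with -1.38 (limma adjusted p = 0.0224) for slide as a block and -1.58 (limma adjusted p = 0.000526) for the sets of sample numbers, 1 to 4 and 5 to 8, as a block. Within the knockout, the arrays numbered 1 to 4 had more Vdac1 signal, from 2.26, than those numbered 5 to 7, up to 1.53. Earlier results of these data had also shown arrays 1 to 4 (with WT 3) apart from arrays 5 to 8 across all genes, and the ribosomal proteins are therefore given below with and without that division.

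No ribosomal protein transcript passed the test between knockout and wild type. By limma with Benjamini-Hochberg adjustment over all 14746 features, 0 of 77 were higher and 0 lower at an adjusted p under 0.05, where 1.09% of all features were called (0.698% higher and 0.393% lower). At an unadjusted p under 0.05, 8 were higher, 4 of each subunit, and 0 were lower. That is 10.4% of the family, beside 9.35% of all features higher and 6.23% lower. The 8 were Rpl32, Rpl11, Rpl21 and Rpl27a of the large subunit and Rps2, Rps14, Rps29 and Rps6 of the small subunit. The last of these is the substrate of the S6 kinases downstream of mTORC1.

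The differences were small and lay mostly on one side of zero. The median difference, knockout minus wild type, was 0.16 for the large and 0.17 for the small subunit, and 0.040 for all features. It was positive for 40 of 46 large-subunit and 27 of 31 small-subunit genes, together 87.0%, where 55.3% of all features were positive. The range ran from -0.12 (Rps27a) to 0.54 (Rpl32), and the standard errors from 0.11 to 0.28, about as large as the median itself. The direction depended on the scaling. With quantile normalization the median of the 77 was -0.016 and 36 were positive, and in the deposited value table, whose columns are alike in their sorted values, it was -0.019 and 35 were positive. For 55 of 77 genes (31 large, 24 small) the 95% interval of the difference lay inside 1.5-fold in both directions, a log2 value of 0.58. For the other 22 it reached 1.5-fold higher, and for Rpl3 it reached 1.5-fold lower too.

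**Figure D1:**
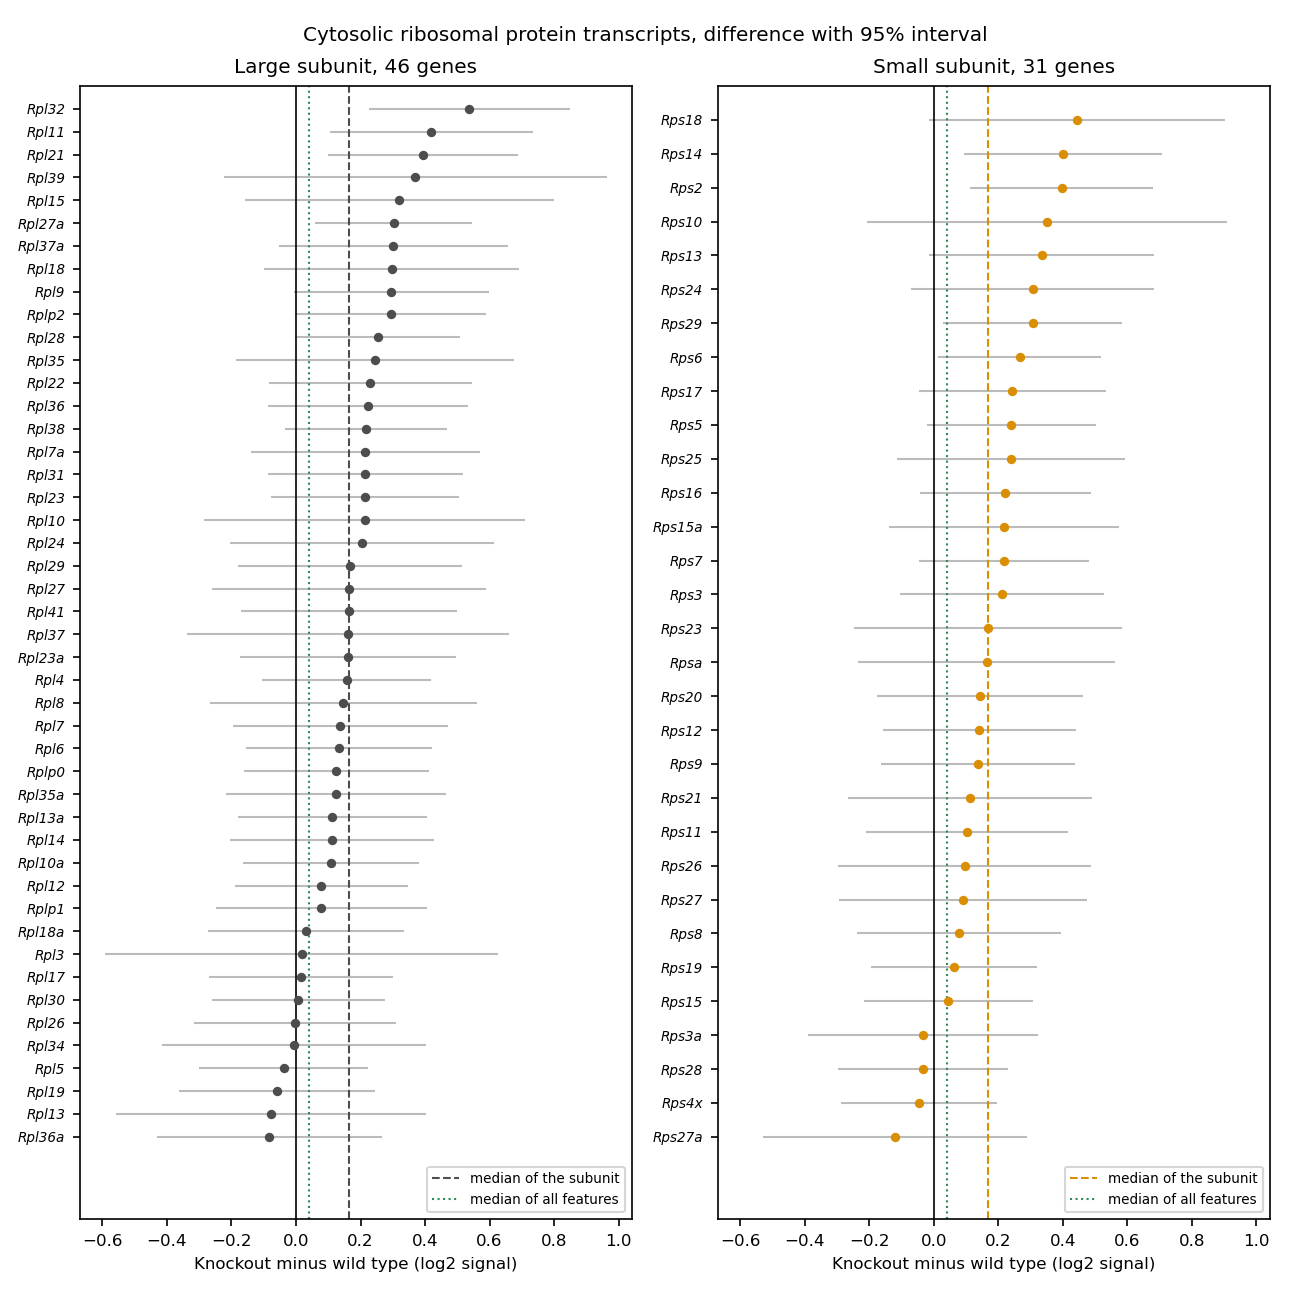
Difference in log2 signal, knockout minus wild type, for each of the 77 ribosomal protein genes with its 95% interval from limma, large subunit on the left and small subunit on the right, sorted by size, with lines at the medians of the subunit and of all features. Most points lie right of 0 and most intervals include 0, from -0.12 (Rps27a) to 0.54 (Rpl32), and with quantile normalization 36 of the 77 differences are positive.

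Among the genes of the large subunit, Rpl32 had the largest difference. Its protein lies on the solvent side of the subunit. The signal had a lowest value of 6.78, a median of 6.88 and a highest value of 7.35 in the knockout, and was 6.73, 6.29, 6.52, 6.55 and 6.10 in WT 3, WT 5, WT 6, WT 7 and WT 8. Every knockout array lay above every wild-type array. The means were 6.98 ± 0.20 (SD, n = 7) and 6.44 ± 0.24 (SD, n = 5), and the difference of 0.54 (SE 0.15) had a limma adjusted p of 0.0887. All 6 Rpl32 probes differed in the same direction, by 0.32 to 0.54. The brightest one lies in rn4 at chr6:145183354-145183413 on the minus strand, per the file annotation. It is printed with capitals marking its longest unbroken run, 38 bases, shared with the probe of a copy that carries another name.
Rpl32 probe: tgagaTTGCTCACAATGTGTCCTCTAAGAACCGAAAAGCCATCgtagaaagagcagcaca
Both copies tied to Rpl32 by their descriptions gave other values, -0.13 and 0.30, and how much copy RNA each probe reads was not tested.

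Rpl11 and Rpl5 form, with 5S ribosomal RNA, the particle that binds MDM2 when ribosome assembly fails, and their values are given together. The difference between them was not tested. Rpl11 had a lowest, median and highest signal of 5.63, 5.93 and 6.20 in the knockout, and was 5.97 in WT 3 and 5.47, 5.36, 5.34 and 5.49 in WT 5 to WT 8. The groups overlapped through WT 3 alone, since the lowest knockout value exceeds the other 4 wild-type values. The difference was 0.42 (SE 0.15, limma adjusted p = 0.183), and the other probe gave 0.42 as well. Rpl5 ranged from 5.98 to 6.26 in the knockout (median 6.14) and from 6.02 to 6.53 in the wild type (median 6.10). Its difference was -0.04 (SE 0.12, limma adjusted p = 0.921). WT 3, at 6.53, lay above all other arrays, and the remaining wild-type values lay inside the knockout range. A copy tied to Rpl11 by its description differed by 0.57 (SE 0.17, limma adjusted p = 0.131). The Rpl11 probe, at chr5:154827297-154827356 on the minus strand of rn4, shares no unbroken run of 25 bases with a probe of another gene name. Its end nonetheless matches the start of that copy's probe apart from a few bases.
Rpl11 probe: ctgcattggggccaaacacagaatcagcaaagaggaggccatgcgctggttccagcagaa

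Rpl21 and Rpl27a came next by their p-values. Rpl21 had a lowest, median and highest knockout signal of 7.16, 7.29 and 7.52, against 7.24, 7.01, 6.66, 6.61 and 7.08 in WT 3 and WT 5 to WT 8. WT 3 alone overlapped the knockout, and the difference was 0.39 (SE 0.14, limma adjusted p = 0.183). The 5 Rpl21 probes ranged from 0.03 to 0.39, so the size depended on the probe. Rpl27a was named after its values were seen, as the other gene whose groups were apart on the brightest probe. Its knockout signal was 7.06 to 7.25 (median 7.13) and its wild-type signal 6.96, 6.69, 6.88, 7.03 and 6.65 in the same order. The difference was 0.30 (SE 0.11, limma adjusted p = 0.208). Rpl32 and Rpl27a were thus the only 2 of 77 genes with every knockout array above every wild-type array, where 1.84% of all features were so, and 0 of 77 were entirely below, where 0.882% were.

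Rpl39 and Rpl15, the other large-subunit genes among the 5 largest differences, varied more within a genotype than between genotypes. Rpl39, a short protein of the exit tunnel, was 6.15 to 6.38 in KO 1 to KO 4 and 4.98 to 5.52 in KO 5 to KO 7, 6.08 in WT 3 and 5.22, 5.50, 5.36 and 5.09 in WT 5 to WT 8. KO 1 to KO 4 lay above every wild-type array, while KO 5 to KO 7 overlapped with WT 5 to WT 8. The difference of 0.37 (SE 0.28, limma adjusted p = 0.544) became 0.01 with the number set, 1 to 4 or 5 to 8, as a block. Rpl15 was 6.33 to 7.37 in the knockout and 5.95 to 6.96 in the wild type, a difference of 0.32 (SE 0.22, limma adjusted p = 0.512). In each genotype Rpl15 was highest on slide 3, at 7.37 and 7.03 in KO 4 and KO 5 and 6.67 and 6.96 in WT 6 and WT 7. Its 2 probes gave 0.02 and 0.32, the former a dim probe with signals of -3.32 to -2.18. The 3 copies tied to Rpl15 by their descriptions gave 0.43 to 0.57, with a lowest limma adjusted p of 0.0558. With the number set as a block limma called 2 of these copies higher, by 0.50 (adjusted p = 0.0345) and 0.46 (adjusted p = 0.0401). In that fit 3.04% of all features were called higher.

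At the other end, 6 large-subunit genes had a negative difference, and none came near the threshold. Rpl36a, at the tRNA exit site, was 5.28 to 5.85 in the knockout and 5.37 to 6.12 in the wild type (-0.08, SE 0.16). Rpl13 was 6.32 to 7.28 and 6.62 to 7.65 in the same order (-0.08, SE 0.22), and its other 2 probes gave 0.22 and 0.34. Rpl19, which takes part in a bridge between the subunits, was 7.44 to 8.01 and 7.53 to 8.05 (-0.06, SE 0.14), while Rpl34 differed by -0.01 (SE 0.19). In all 4 the ranges of the genotypes overlapped over most of their length.

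The acidic stalk proteins recruit elongation factors to the large subunit. Rplp0, the base of the stalk and a frequent reference transcript for quantitative PCR, was 7.69 to 8.27 in the knockout (median 8.03) and 7.62 to 8.04 in the wild type (median 7.96). Its difference was 0.13 (SE 0.13, limma adjusted p = 0.692), with a 95% interval from -0.16 to 0.41. Rplp1 differed by 0.08 (SE 0.15) and Rplp2 by 0.29 (SE 0.14, limma adjusted p = 0.325). Rplp2 was 7.42 to 7.82 in the knockout, and WT 3 at 7.74 was the 1 wild-type array inside that range. Rpl22, a protein with a separate role in lymphocyte development, differed by 0.23 (SE 0.15) and Rpl41, the smallest ribosomal protein, by 0.16 (SE 0.16). Rpl41 was 7.92 to 8.49 in the knockout, 8.64 in WT 3 and 7.95 to 8.01 in WT 5 to WT 8. It also changed sign with quantile normalization, to -0.03.

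**Figure D2:**
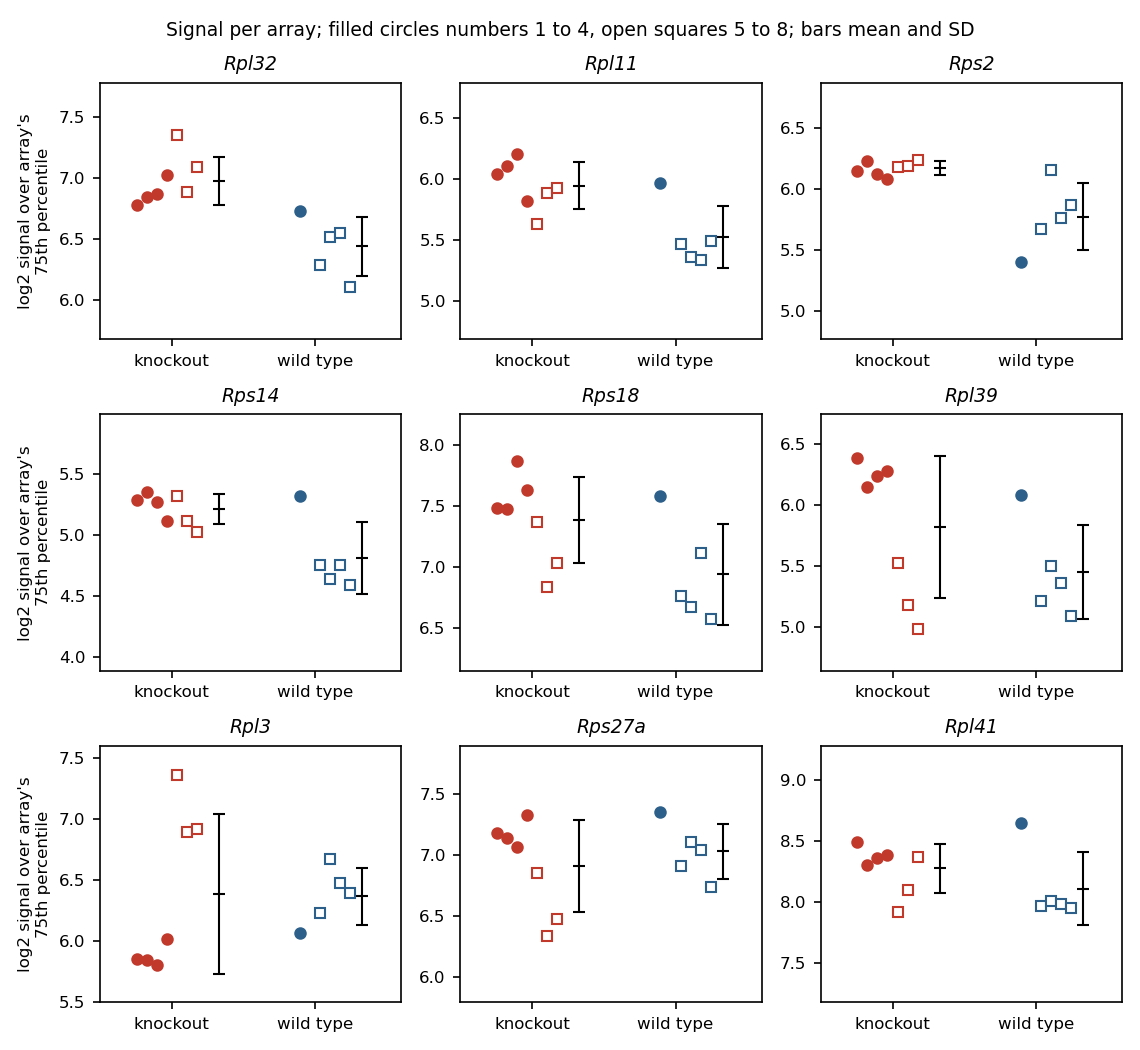
Log2 signal relative to the array's 75th percentile for 9 ribosomal protein genes on each of the 12 arrays, with filled circles for numbers 1 to 4, open squares for numbers 5 to 8, and the mean and SD of each genotype beside them. In Rpl32 the genotypes do not overlap, in Rps14 and Rpl11 they overlap through WT 3, and the knockout values of Rpl39 and Rpl3 lie apart by sample number, in opposite directions.

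In the small subunit Rps18, a protein of the head that contacts the large subunit, had the largest difference but a wide spread. It was 7.47 to 7.87 in KO 1 to KO 4 and 6.84 to 7.37 in KO 5 to KO 7, and was 7.58, 6.76, 6.67, 7.11 and 6.57 in WT 3 and WT 5 to WT 8. WT 3 and WT 7 lay inside the knockout range and the other 3 wild-type arrays below it. The difference was 0.44 (SE 0.21, limma adjusted p = 0.335), and the 3 probes gave 0.44 to 0.63. Rps14, near the platform where the messenger RNA leaves, had a smaller spread. Its lowest, median and highest knockout values were 5.03, 5.27 and 5.36, with 5.32 in WT 3 and 4.75, 4.64, 4.76 and 4.60 in WT 5 to WT 8. Only WT 3 overlapped the knockout, the difference was 0.40 (SE 0.14, limma adjusted p = 0.189), and the 3 probes gave 0.40 to 0.45.

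Rps2, at the entry of the messenger RNA channel, had an even signal in the knockout on its brightest probe, as some other members did. The 7 knockout values ran from 6.08 to 6.23, an SD of 0.057, while WT 3, WT 5, WT 6, WT 7 and WT 8 gave 5.40, 5.67, 6.15, 5.76 and 5.86. WT 6 was the wild-type array inside the knockout range, and WT 3 was the lowest, as in 3 of 77 members. The difference was 0.40 (SE 0.13, limma adjusted p = 0.161). With the number set as a block it was 0.47 (SE 0.12, limma adjusted p = 0.0490), the 1 member called in that fit, where 3.04% of all features were called higher. The other Rps2 probe was 5.92 to 6.40 in the knockout and 5.41 to 5.95 in the wild type, and differed by 0.46. WT 6 was again the only overlap. The probes overlap in position and read largely the same stretch, so they are not separate readings.

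Rps10, a head protein of the small subunit, was divided within the knockout in the way of Rpl39. It was 7.13 to 7.30 in KO 1 to KO 4 and 6.16 to 6.60 in KO 5 to KO 7, 7.35 in WT 3 and 6.06 to 6.63 in WT 5 to WT 8. The difference of 0.35 (SE 0.26, limma adjusted p = 0.541) became 0.02 with the number set as a block. Rps13 differed by 0.33 (SE 0.16, limma adjusted p = 0.336), with 5.34 to 5.97 in the knockout, 5.84 in WT 3 and 5.14 to 5.35 in WT 5 to WT 8. Rps6 was 5.66 to 5.83 in the knockout, 5.79 in WT 3 and 5.31 to 5.52 in WT 5 to WT 8, so that WT 3 was once more the only overlap (0.27, SE 0.12, limma adjusted p = 0.293). Rps29, named for its unadjusted p after its values were seen, was 7.18 to 7.56 in the knockout and 6.89 to 7.36 in the wild type (0.31, limma adjusted p = 0.273).

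The 4 small-subunit genes with negative differences were Rps27a, Rps4x, Rps28 and Rps3a. Rps27a is translated as a fusion with ubiquitin and thereby also supplies that modifier. It was 7.07 to 7.33 in KO 1 to KO 4, 6.34 to 6.85 in KO 5 to KO 7, 7.35 in WT 3 and 6.74 to 7.11 in WT 5 to WT 8. The difference was -0.12 (SE 0.19, limma adjusted p = 0.809), the lowest of the family, and -0.33 with the number set as a block. The other probes of the gene gave -0.12, -0.12 and 0.05. One of them, in its coding part at chr14:110560011-110560070 on the minus strand of rn4, is among those at -0.12 and is printed as a member of opposite sign to most.
Rps27a probe: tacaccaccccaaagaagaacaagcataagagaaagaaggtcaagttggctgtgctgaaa
Rps4x, encoded on the X chromosome, was 3.27 to 3.56 in the knockout and 3.16 to 3.53 in the wild type (-0.05, SE 0.11). Rps28 and Rps3a each differed by -0.03, and Rps15, the next in order, by 0.04. Rpsa, which is also known as the laminin receptor, was 5.26 to 5.86 in the knockout, 6.11 in WT 3 and 4.96 to 5.38 in WT 5 to WT 8 (0.16, SE 0.18).

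The family was then summarised per array as the median deviation of its members from their own means over the 12 arrays. For the large subunit this lay between 0.12 and 0.16 for KO 1 to KO 4, was 0.05 for KO 5 and KO 7 and -0.12 for KO 6. For WT 3 it was 0.23, and for WT 5, WT 6, WT 7 and WT 8 it was -0.19, -0.14, -0.09 and -0.28. The small subunit followed, from 0.20 in WT 3 to -0.22 in WT 8. WT 3 was thus the highest of all 12 arrays, and the other 4 wild-type arrays were negative together with KO 6 and, in the small subunit, KO 7. The group means were 0.07 ± 0.10 (SD, n = 7) and -0.10 ± 0.20 (SD, n = 5) for the large subunit, and 0.07 ± 0.10 and -0.09 ± 0.17 for the small subunit. By count, WT 8 had 2 and WT 5 had 4 of 77 members above their own mean, while WT 3 had 65 and KO 1 and KO 3 had 67 each.

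**Figure D3:**
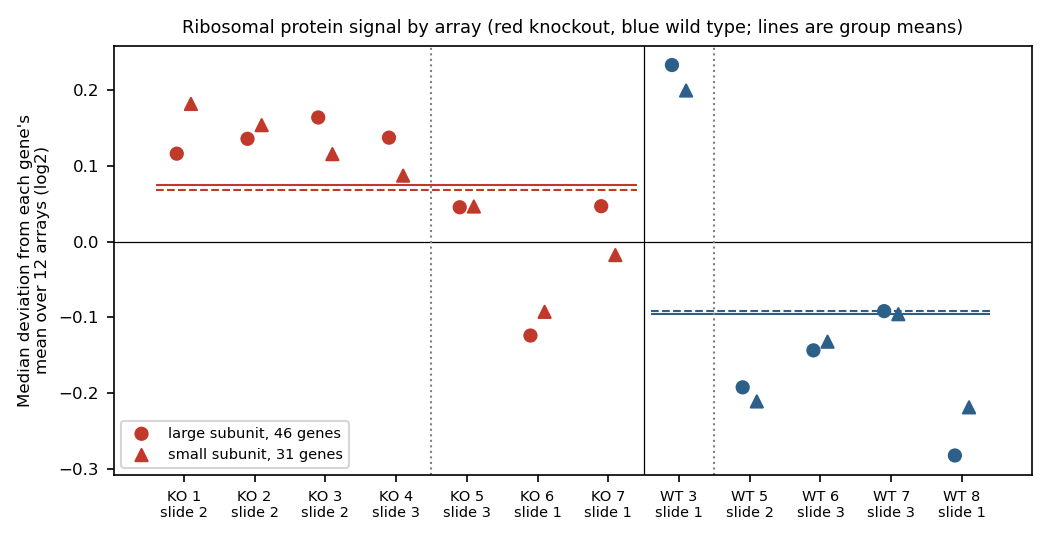
Median deviation of the large-subunit and small-subunit genes from their own means, on the log2 scale relative to the 75th percentile, for each of the 12 arrays. WT 3 is the highest for both subunits, at 0.23 and 0.20, and WT 8 the lowest, at -0.28 and -0.22.

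WT 3 stood above the other wild-type arrays in most members. It lay above WT 5 to WT 8 in 57 of 77 members (35 large and 22 small), where it did so in 32.3% of all features, and below them in 3, where it did so in 28.2%. The median of WT 3 minus the mean of WT 5 to WT 8 was 0.45 for the large and 0.36 for the small subunit. Without WT 3, the median difference of the 77 genes was 0.26 and 72 were positive, beside 0.049 and 55.5% positive over all features. At an unadjusted p under 0.05, 28 were higher, where 12.7% of all features were. Limma then called 3 members higher, Rps14 by 0.53 (adjusted p = 0.0261), Rpl32 by 0.61 (adjusted p = 0.0372) and Rpl11 by 0.53 (adjusted p = 0.0424), where it called 2.6% of all features higher. WT 3 carries the only wild-type number in the set 1 to 4, so that set and this array cannot be told apart within the wild type.

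Within the knockout the members did not share one shift between number sets. All 4 arrays KO 1 to KO 4 lay above KO 5 to KO 7 in 24 of 77 genes (12 of each subunit), where 17.3% of all features did so, and below them in 2, where 19.9% did. The median shift was only 0.12, but it was 1.03 for Rpl39, 0.94 for Rpl10, 0.81 for Rps10 and 0.64 for Rpl13. Rpl3, which reaches towards the peptidyl transferase centre, went the other way by -1.18. Its signal ran from 5.80 to 6.02 over KO 1 to KO 4 and from 6.89 to 7.36 over KO 5 to KO 7. The wild type, from 6.07 to 6.68, lay between them. Rpl3 and Rpl10, whose protein joins the large subunit late in its assembly, were named here after their values were seen. The difference between genotypes was 0.02 (SE 0.28) for Rpl3, whose interval is the widest of the family. Vdac1 signal was also divided this way in the knockout, and whether the members' division depends on it was not tested.

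With the number set as a block the median difference of the family was 0.064, with 54 of 77 positive. The median of all features in that fit was 0.051, with 57.0% positive. Limma called 1 of 77 (Rps2), where it called 5.09% of all features. At an unadjusted p under 0.05, 8 were higher and 2 lower, beside 12.1% of all features higher and 8.92% lower. Over numbers 5 to 8 alone the family's median was 0.15 with 62 positive, beside 0.075 and 58.5% positive over all features. Limma called 0 of 77 there, where 4.67% of all features were called. Slides gave unequal answers as well. With slide as a block the median was 0.16 and 1 member, Rpl32 at 0.59, was called higher (limma adjusted p = 0.0399), where 1.72% of all features were higher and 2.74% were called in either direction. Within slide 1, which held KO 6, KO 7, WT 3 and WT 8, the median was -0.044. The knockout arrays there are of numbers 5 to 8, while WT 3 is of the other set and was the highest of all 12 arrays. Within slide 2, which held KO 1 to KO 3 and WT 5, the median was 0.36. Within slide 3, with KO 4, KO 5, WT 6 and WT 7, it was 0.21. Slide 2 alone gave 6 called members (Rpl10, Rpl15, Rpl18, Rpl39, Rps3 and Rps10, between 0.66 and 1.04), where 7.2% of all features were called higher. That fit rests on a single wild-type array whose number set also differs from the knockout arrays beside it.

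**Figure D4:**
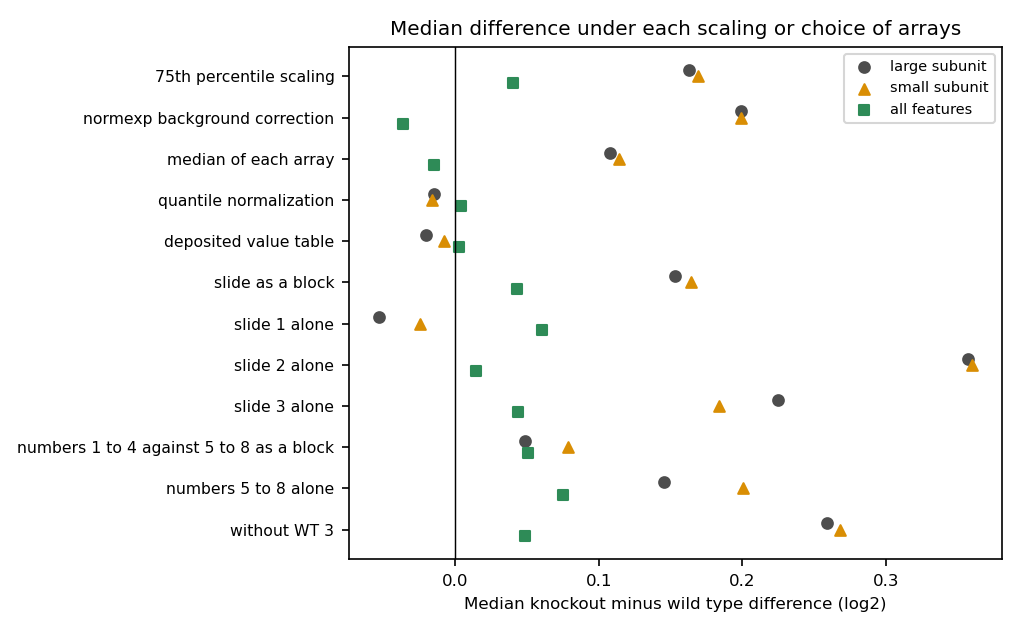
Median difference in log2 signal, knockout minus wild type, over the large-subunit genes, the small-subunit genes and all features tested, under each way of scaling, blocking or leaving out arrays. Values near 0.16 recur, but the medians of both subunits are below 0 with quantile normalization, in the deposited table and within slide 1, and highest within slide 2 at 0.36.

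The members were among the brightest features of the arrays. Their brightest probes stood between percentile 88.2 (Rpl27) and 99.98 (Rpl41) of all features tested, with a median of 99.2. Quantile normalization makes the sorted values alike on all arrays, the bright end included. The median difference of the 77 was 0.20 with normexp background correction (71 positive), 0.11 with the median of each array in place of the 75th percentile (62 positive), and -0.016 with quantile normalization. The median of all features stood at -0.036, -0.014 and 0.0044 in these 3 settings. When each array was centred on the members themselves, the median of all features moved to -0.13 and the members' median became -0.0074 by construction. The Rpl32 difference was positive in each of these 4 settings, from 0.35 to 0.50.

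Several probes per gene gave a further view of each member. The 77 genes had 194 probes, from 1 probe for 19 genes to 7, and 191 were tested. Of these 172 had a positive difference, where 55.3% of all features were positive. In 49 of the 56 genes with more than 1 tested probe, all probes had the same sign, and in 5 genes they differed by more than 0.3. On 4 of the 191 tested probes every knockout array lay above every wild-type array, where 1.84% of all features were so. They were the brightest Rpl32 probe, 2 of the 3 Rpl27a probes (here 1 and 3), and an Rpl7 probe (0.60). Rpl27a probe 3 had the largest difference of these, 0.95, with 1.97 to 2.82 in the knockout and 1.82, 1.09, 1.83, 1.13 and 1.90 in WT 3 and WT 5 to WT 8. Both lie on the plus strand of rn4, probe 1 at chr1:167116751-167117714, a span longer than its 60 bases, and probe 3 at chr1:167117745-167117804. They are printed because they read neighbouring coding stretches and differ in size.
Rpl27a probe 1: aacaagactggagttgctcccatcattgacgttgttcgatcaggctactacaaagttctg
Rpl27a probe 3: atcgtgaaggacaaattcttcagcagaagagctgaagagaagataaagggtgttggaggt

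**Figure D5:**
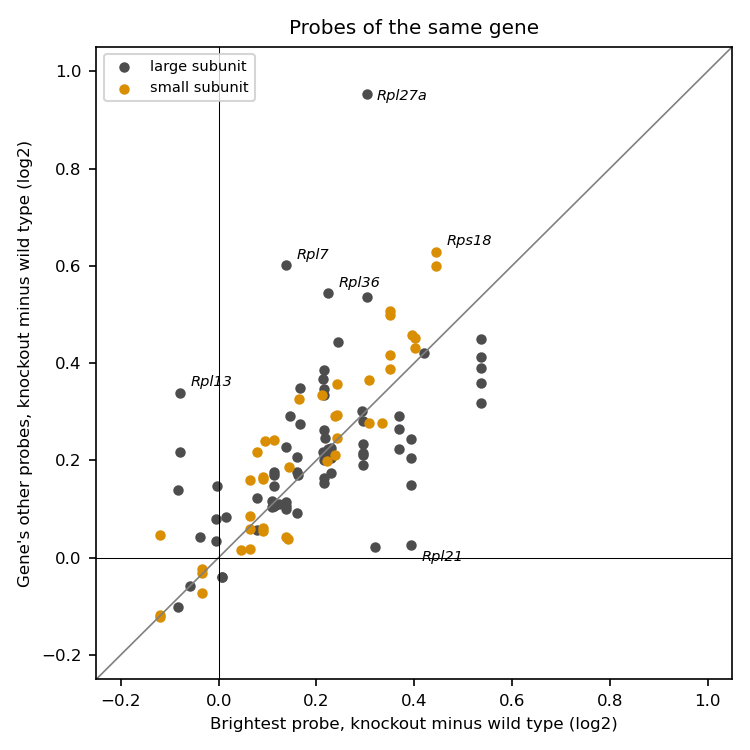
Difference in log2 signal, knockout minus wild type, of each further probe of a ribosomal protein gene (vertical axis) against that of the gene's brightest probe (horizontal axis), with the line where both are equal. Most points lie above 0 on both axes under the scaling by the 75th percentile, while Rpl27a reaches 0.95 against 0.30 and Rpl21 0.03 against 0.39.

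Features that the annotation describes as a cytosolic ribosomal protein but lists under another name, many of them predicted copies, were examined as well. This group was defined after the files were seen. It held 174 features, 173 of which could be tied to 58 of the members. Their median difference was 0.23 and 152 were positive, where 55.3% of all features were positive. Limma called 1 of them higher and 0 lower, where 0.698% of all features were called higher and 0.393% lower. At an unadjusted p under 0.05, 42 were higher and 1 lower, beside 9.35% of all features higher and 6.23% lower. The called one is described as similar to S2 and rose by 0.80 (SE 0.17, limma adjusted p = 0.0409), with every knockout array above every wild-type array. This was a dim feature, with a mean signal of -3.11, and was not well above background on all 12 arrays. It lost the call with normexp, where the difference was 0.25, with the median of each array (0.74), when centred on the members (0.62), with quantile normalization (0.78) and without any 1 of 9 arrays (KO 1 to KO 4, KO 6 and WT 5 to WT 8), at 0.73 to 0.83. Its probe is printed with both Rps2 probes, which lie at chr10:13976025-13976084 and chr10:13976032-13976091 on the plus strand of rn4. Capitals mark the longest unbroken run, 26 bases, that the Rps2 probes share with each other. In the copy they mark the longest run, 20 bases, that it shares with probe 2. The Rps2 probes overlap in position and match at most bases before their run too, so both read largely the same stretch.
Rps2 probe 1: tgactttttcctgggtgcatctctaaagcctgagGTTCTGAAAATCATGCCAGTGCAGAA
Rps2 probe 2: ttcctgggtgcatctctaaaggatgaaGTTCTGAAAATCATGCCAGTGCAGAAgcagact
Rps2-like feature: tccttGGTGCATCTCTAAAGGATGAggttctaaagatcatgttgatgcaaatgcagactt
The 8 copies tied to Rps2 ranged from -0.36 to 0.80, the 3 tied to Rps18 from 0.65 to 0.78 and the 6 tied to Rps10 from 0.35 to 0.66. Which transcripts the probes of near-identical copies read is uncertain. In 25 of 77 members the brightest probe shared a run of at least 25 bases with a probe of another name. The median difference was 0.17 in those 25 and 0.16 in the other 52.

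Promoter sequences were taken from the RefSeq table for rat (GRCr8), 250 bases before to 50 bases after each annotated start, and 62 of 77 members were found in it (38 large and 24 small). A terminal oligopyrimidine start was searched as a C at the annotated start followed by C or T for a run of at least 5 bases, on the transcribed strand. It was present in 24 members, 38.7%, and in 2.63% of all 33469 promoters. With the run allowed to begin within 10 bases of the annotated start, it was present in 47 members, 75.8%, and in 28.9% of all promoters. Here and for the motifs below, members were counted by gene and the background by promoter. The shares are therefore in unlike units, which may raise the share of members where a gene has several promoters. The size of this effect was not tested. The members with the run at the start had a median difference of 0.14 (from -0.06 to 0.44), and the 38 without it 0.17 (from -0.12 to 0.42). The difference between them was not tested. Examples are printed from 10 bases before the start to 20 bases from it, with the run in capitals, to show how it varies among members whose values are given above.
Rps18, chr20:4933735-4933764, plus strand: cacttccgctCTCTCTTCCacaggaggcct
Rps14, chr18:56498250-56498279, plus strand: ccgtctctctCTTTCCggtggaggagtctg
Rpl39, chrX:121195877-121195906, minus strand: taatcgcgttCTTCCggcctgtcctttctc
Rplp0, chr12:46718371-46718400, minus strand: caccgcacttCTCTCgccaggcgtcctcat
Rpl11, chr5:153560783-153560812, minus strand: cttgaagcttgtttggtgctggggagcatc
Rpl21, chr12:13386134-13386163, minus strand: ttccgccggggcagccatcttccaggttgg
The last pair has no such run at the annotated start. Other promoter motifs were searched on both strands of the 300 bases, and matches of different motifs may overlap. CCGGAAG, which the ETS family including GABP binds, was found in 20 of 62 members (32.3%) and in 8.75% of all promoters. TATAAA was found in 6 (9.68%, against 14.2%) and GGGCGG, bound by SP1, in 36 (58.1%, against 33.1%). Matches were counted at any position, so one of TATAAA need not be a TATA box. Members with CCGGAAG had a median difference of 0.23 and those without it 0.14. The medians were 0.07 and 0.17 for TATAAA and 0.16 and 0.21 for GGGCGG, in the same order, and none of these differences was tested.

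Genes around the ribosome were read from lists chosen with earlier results of these data known. Of 71 ribosome biogenesis factors tested limma called 0, where 1.09% of all features were called. At an unadjusted p under 0.05, 0 were higher and 7 lower, beside 9.35% of all features higher and 6.23% lower. The median difference was -0.09. The median was negative in each scaling tried, from -0.065 to -0.26, and 0.0064 within slide 2. The median of the ribosomal proteins was positive under the 75th percentile and negative with quantile normalization, as given above. Gar1, a protein of the box H/ACA particles that pseudouridylate ribosomal RNA, was -1.68 to -1.17 in the knockout and -1.14, -0.71, -0.76, -0.79 and -0.91 in WT 3 and WT 5 to WT 8. The groups did not overlap, and the difference was -0.48 (SE 0.13, limma adjusted p = 0.0910). With the number set as a block and without WT 3 limma called 1 biogenesis factor lower in each, and over numbers 5 to 8 alone 2. Of all 14746 features these fits called 303, 267 and 348 lower, in the same order. Among 38 initiation factors (median 0.02) and 16 elongation and termination factors (median 0.09) limma called 0 in each. At an unadjusted p under 0.05, 2 and 3 were higher and 0 lower, beside the same 9.35% and 6.23% of all features. Eif2b2, a subunit of the exchange factor of eIF2, differed by 0.58 (SE 0.13, limma adjusted p = 0.0560), and Hbs1l, of stalled-ribosome rescue, by 0.60 (SE 0.20, limma adjusted p = 0.174). Eif2b2 was called higher with the number set as a block (0.46, limma adjusted p = 0.0225) and without WT 3 (0.68, limma adjusted p = 0.0116). With quantile normalization both medians turned negative, to -0.12 and -0.045.

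Of 22 other messenger RNAs with a terminal oligopyrimidine motif limma called 0 (3 higher and 1 lower at an unadjusted p under 0.05, median 0.09, and -0.07 with quantile normalization). At that unadjusted level 9.35% of all features were higher and 6.23% lower, shares that also stand beside the lists that follow. Gnb2l1, which encodes RACK1 on the small subunit, was 3.53 to 3.85 in the knockout and 3.05 to 3.52 in the wild type without overlap (0.33, limma adjusted p = 0.203). Of 37 genes of the mTORC1 pathway and of its link to these messenger RNAs limma called 0 (2 higher and 1 lower at an unadjusted p under 0.05), and the lysosomal Ragulator subunit gene Lamtor3 had the smallest p (0.54, limma adjusted p = 0.0835). Lamtor3 was called higher with slide as a block (0.60, limma adjusted p = 0.0346) and with the number set as a block (0.59, limma adjusted p = 0.0321). Of 7 paralogs and fusion genes outside the naming rule limma called 0 (3 higher and 0 lower at an unadjusted p under 0.05), with a median of 0.21. Rpl36al, a retrocopy-derived paralog of Rpl36a, was 3.76 to 4.22 in the knockout, 3.89 in WT 3 and 3.42 to 3.70 in WT 5 to WT 8 (0.34, limma adjusted p = 0.197), while Rpl36a itself differed by -0.08.

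Among 11 genes linked to p53 and nucleolar stress limma called 1, which was lower, where 0.393% of all features were called lower. At an unadjusted p under 0.05, 0 were higher and 3 lower, where 9.35% of all features were higher and 6.23% lower. Gadd45a, a p53 target in growth arrest and DNA repair, was 1.25 to 1.62 in the knockout, 1.55 in WT 3 and 2.33, 2.64, 2.24 and 2.56 in WT 5 to WT 8. It fell by 0.86 on the log2 scale (SE 0.17, limma adjusted p = 0.0409), and WT 3 alone overlapped the knockout. The call was kept without KO 5 or WT 3 and lost without any 1 of the other 10 arrays, at -0.76 to -0.86. It was also lost with normexp (-0.76), with the median of each array (-0.91) and when arrays were centred on the ribosomal proteins (-1.03). The median of the list was -0.29. It was -0.75 without WT 3, -0.09 over numbers 5 to 8 alone and 0.03 with the number set as a block. Without WT 3 limma called 4 of 11 lower, beside 267 of all 14746 features. Over numbers 5 to 8 alone limma called 2 lower, beside 348 of all features. Mitochondrial ribosomal proteins, the like family of the organelle in whose outer membrane VDAC1 sits, had a median of 0.11 over 68 genes tested, with 0 called. At an unadjusted p under 0.05, 9 (13.2%) were higher and 1 lower, beside 9.35% of all features higher and 6.23% lower. Blocking on slide gave 1 call, where 2.74% of all features were called, and 17 higher at that unadjusted level, where 11.2% were. Over numbers 5 to 8 alone limma called 1, where 4.67% of all features were called. Without WT 3 it called 2, where 4.41% were called. Mrpl10, of the large mitochondrial subunit, had the smallest p (difference 0.54, SE 0.17, limma adjusted p = 0.137), with 4.87 to 5.45 in the knockout and 3.89 to 4.80 in the wild type. The difference between the cytosolic and the mitochondrial family was not tested.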

How the data were processed

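Spot intensity on a linear scale was deposited for 12 arrays, and per the file headers the processed signal is the software's background-corrected value. Version 10.7 of Agilent Feature Extraction is given per the submitters' processing notes and 10.1.1.1 per the file headers, as is build rn4. The deposited value table holds log2 values that the authors quantile normalized, per the labels, and was an alternative here. Total RNA had been labelled with Cy3, per the labels' protocols.

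Of 58717 spots that are not controls, for 45598 probes of 60 bases, spots marked as uneven or as outliers were left out and spots of a probe averaged. From log2 of the processed signal the array's 75th percentile was subtracted. Per gene name the probe with the highest mean over 12 arrays was kept. Features well above background on at least 5 arrays were tested. Genotypes were contrasted by a two-sided limma fit (version 3.58.1, R 4.3.3) through lmFit and eBayes without covariates. P-values were adjusted over all features after Benjamini-Hochberg, and 0.05 was the threshold. The code was tested on simulated data. The number of arrays limits the precision. Intervals are 95% and come from the same fit.

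The members, lists and alternatives were chosen with earlier results of these data known. Named are Vdac1, called members, per subunit the 5 largest positive and 5 largest negative differences, 12 members fixed for their role, and from each list the called genes or the gene with the smallest p. Those named in addition are marked as such or named for their count. Alternatives covered slide, number set, replicate number, background correction, scaling, source of values, filters, probe choice and each array left out.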

Additional observations from a re-analysis of the deposited data

Results flagged for a closer look

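A single array stood far from the rest of its genotype in 9 of 86 groups of values checked, and chance alone marks about 1 in 20 such groups. In 6 of the 9 the array was WT 3. Its Rpl41 signal was 8.64, with the other wild-type arrays at 7.95 to 8.01. Its Rpl5 signal was 6.53, its Rpl11 signal 5.97 and its Rps14 signal 5.32, in each case the highest of the wild type. The same held for the targeted gene, with a Vdac1 signal of 3.61 in WT 3, and for the translation factor gene Eif2b2, at 2.68. In the knockout, KO 6 had a median deviation of -0.12 over the large subunit, where the other 6 knockout arrays lay at 0.05 to 0.16. KO 2 had an Rps4x signal of 3.56, above the next highest of 3.38. WT 7 had an Hbs1l signal of -2.54, below the next lowest of -1.64.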

How the results depend on the processing

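The fit reported above called 103 features higher and 58 lower and 0 ribosomal protein genes. Without one array at a time the calls over all features ran from 9 to 383 higher and 3 to 267 lower, the large-subunit median from 0.13 to 0.26 with 0 to 2 members called higher, and the small-subunit median from 0.14 to 0.27 with 0 to 1. The upper end was reached without WT 3. With slide as a block 253 features were higher and 151 lower, with 1 large-subunit member called.

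Slide 1 set KO 6 and KO 7 against WT 8 and WT 3, the array highest in both subunits. Rpl39 was 6.08 in WT 3, 5.09 in WT 8, 5.18 in KO 6 and 4.98 in KO 7. Within slide 1 limma called 0 higher and 0 lower, the medians were -0.053 (large) and -0.025 (small), and the sign changed for Rpl39 (-0.50), Rps10 (-0.26), Rps18 (-0.14), Rpl41 (-0.065), Rps13 (-0.025) and Rpl22 (-0.013). Within slide 2 it called 1062 higher and 923 lower, with 4 large-subunit and 2 small-subunit members and medians of 0.36 and 0.36. Within slide 3 it called 0 and 0. With the number set as a block it called 448 higher and 303 lower, with 1 small-subunit member. Over numbers 5 to 8 alone it called 340 and 348, and Rpl39 was at -0.063.

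With quantile normalization the medians were -0.015 and -0.016, 56 features were higher, and Rpl41 was at -0.031. In the deposited table the medians were -0.020 and -0.0075, 53 features were higher, and Rpl41 was at -0.047. Centred on the members, the medians were -0.0089 and -0.0027, 12 features were higher and 30 lower, and Rpl41 was at -0.0074. Normexp gave 16 higher and 9 lower, the array median 21 and 19, no filter on dim probes 0 and 0 and the filter on all 12 arrays 181 and 108. A change of sign was counted where the main difference exceeded its standard error. The cause was not tested.

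The label numbers 3, 5, 6 and 7 occur in both genotypes. Their deviations correlated at 0.46, -0.11, 0.07 and 0.05, so the samples share a number and were not treated as pairs. With the replicate block limma called 0 features higher and 0 lower, the medians were 0.055 and 0.11, and Rpl39 was at -0.059.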
